A study of Mus musculus with 6 samples.

Results

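Mast cell genes were examined in bulk RNA-seq of 6 tumors that are labelled MC38, a mouse colon carcinoma cell line, and that grew under the skin of C57BL/6 mice. The set holds 10 genes, which are Kit, Cpa3, Mcpt4, Cma1, Tpsb2, Tpsab1, Fcer1a, Ms4a2, Hdc and Gata2. Each was taken by its gene name from the deposited table of 33965 genes, and each name matched a single gene. The mice were female C57BL/6 animals bought at 6 weeks of age. In the PBS group, 3 tumors came from mice given the vehicle, and in the GB2 group, 3 tumors came from mice given GB2, a compound built from artesunate and from MSA-2, which activates STING, and meant to release both. The dose of GB2 for MC38 tumors was 10 mg/kg, which the labels do not state. The time of sampling of the sequenced tumors is not given in the sources used here. The labels number the tumors but do not say whether each came from its own mouse, so p-values measure the spread between these tumors.

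Mast cells are long-lived tissue cells of the skin, mucosa and connective tissue that arise from bone marrow progenitors and store histamine and proteases in granules. They depend on the receptor KIT and its ligand, stem cell factor, and they bind IgE through a high-affinity receptor whose crosslinking releases the granules within minutes. In tumors they are usually a sparse population at the margin and along vessels.

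The deposited table gives an estimated count for each gene and tumor, and about 4 counts stand for 1 read pair. The total counts were between 64764405 and 69878156 in the PBS tumors and between 81210553 and 83690056 in the GB2 tumors, so each GB2 library was deeper than each PBS library. Values are therefore given as counts, as read pairs (counts divided by 4) and as CPM, a count relative to the library total after TMM scaling. At this depth 1 read pair stands for 0.0566 to 0.0676 CPM in the PBS tumors and for 0.0471 to 0.0481 CPM in the GB2 tumors. A gene was treated as near the detection limit in a tumor with fewer than 3 read pairs, or 12 counts. Intervals on read pairs cover counting error alone.

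The labelled tissue was checked against marker genes first. The 8 epithelial genes of the list (Epcam, Krt8, Krt18, Krt19, Cdh1, Cldn4, Cldn7 and Krt20) all had a mean below 3 CPM, and Epcam was at 0.0744 to 0.456 FPKM, a level per transcript length, across the 6 tumors. Most genes of pigment cells on the lists were abundant in every tumor, the exception being Ednrb at 0.675 to 2.85 FPKM. Dct, which encodes an enzyme of melanin synthesis, was the number 4 gene of the table by mean CPM and was at 690 to 1170 FPKM, Tyrp1 was number 10 at 734 to 1781 FPKM and Pmel was number 14 at 735 to 1840 FPKM. Mitf, the transcription factor of pigment cells and of mast cells, was at 58.4 to 97.6 FPKM. The summed CPM of the pigment cell list lay between 11656 and 16397 in the PBS tumors and between 13012 and 18693 in the GB2 tumors, so the groups overlapped. The expression of the tumors thus goes against the label of a colon carcinoma line in both groups, and they are called the tumors labelled MC38. This bears on Kit and Mitf, which pigment cells also express.

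**Figure D1:**
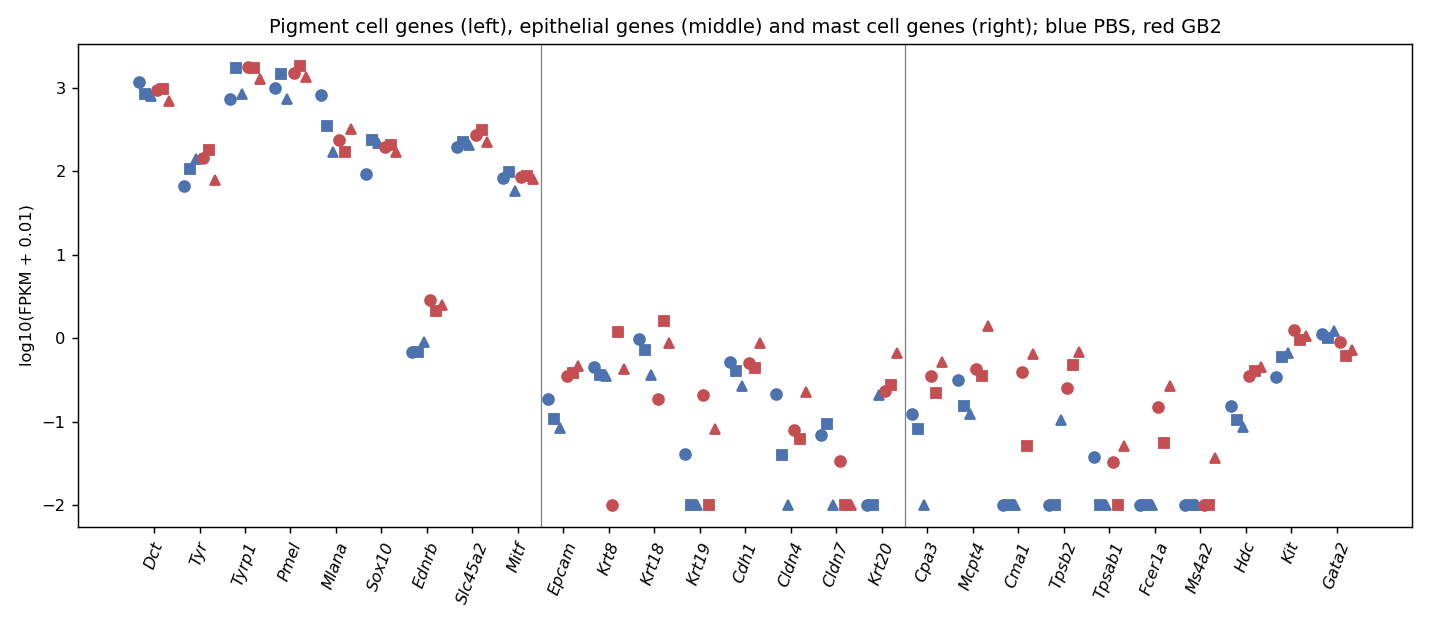
Levels per transcript length of pigment cell genes, epithelial genes and the 10 mast cell genes in each tumor, as log10(FPKM + 0.01), with PBS tumors in blue and GB2 tumors in red and with circles, squares and triangles for tumors 1, 2 and 3. Dct, Tyrp1 and Pmel lie near 3 on this scale, whereas every epithelial and mast cell gene lies near or below 0, and values at -2 are listed at 0 FPKM.

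All 10 mast cell genes were low. Per transcript length, the mean over the 6 tumors ran from 0.00439 FPKM for Ms4a2 to 0.917 FPKM for Gata2. In the PBS tumors the order of FPKM was Gata2 (1.10 ± 0.111, SD, n = 3), Kit (0.524 ± 0.169), Mcpt4 (0.190 ± 0.105) and Hdc (0.105 ± 0.0355), and the other 6 genes were below 0.07 FPKM on average. In the GB2 tumors Kit came first (1.08 ± 0.144 FPKM, SD, n = 3), and Gata2 (0.733 ± 0.149) and Mcpt4 (0.722 ± 0.591), then Tpsb2 (0.460 ± 0.216) and Hdc (0.391 ± 0.0517), and Cma1 (0.356 ± 0.302) and Cpa3 (0.352 ± 0.148) were neighbours that differed by less than their spread.

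In 6 of the 10 genes every GB2 tumor was above every PBS tumor in CPM, where 6.23% of all 31840 genes with a count showed this. These were Cpa3, Cma1, Tpsb2, Fcer1a, Hdc and Kit. Of these, Cpa3, Cma1, Tpsb2 and Fcer1a had at most 3 read pairs in every PBS tumor. Cma1 and Fcer1a also had only 1 read pair in GB2 tumor 2, so the 6 of 10 rests in part on values near the detection limit. Gata2 was the single gene with every GB2 tumor below every PBS tumor, where 6.04% of genes with a count showed that. Among the 6 genes that passed the filter on low counts, 4 were separated upwards and 1 downwards, beside 8.61% and 6.68% of all genes that passed it. Of these 4, Cpa3 and Tpsb2 passed the filter only through their GB2 values, so nothing is read from the 4 of 6. The groups overlapped for Mcpt4, Tpsab1 and Ms4a2. In 8 of the 10 genes the highest value was in GB2 tumor 3, the exceptions being Kit and Gata2. The 8 include Tpsab1 and Ms4a2, which had fewer than 3 read pairs in every tumor. The share of all genes that were highest in GB2 tumor 3 was not computed, so nothing is read from the 8 of 10.

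**Figure D2:**
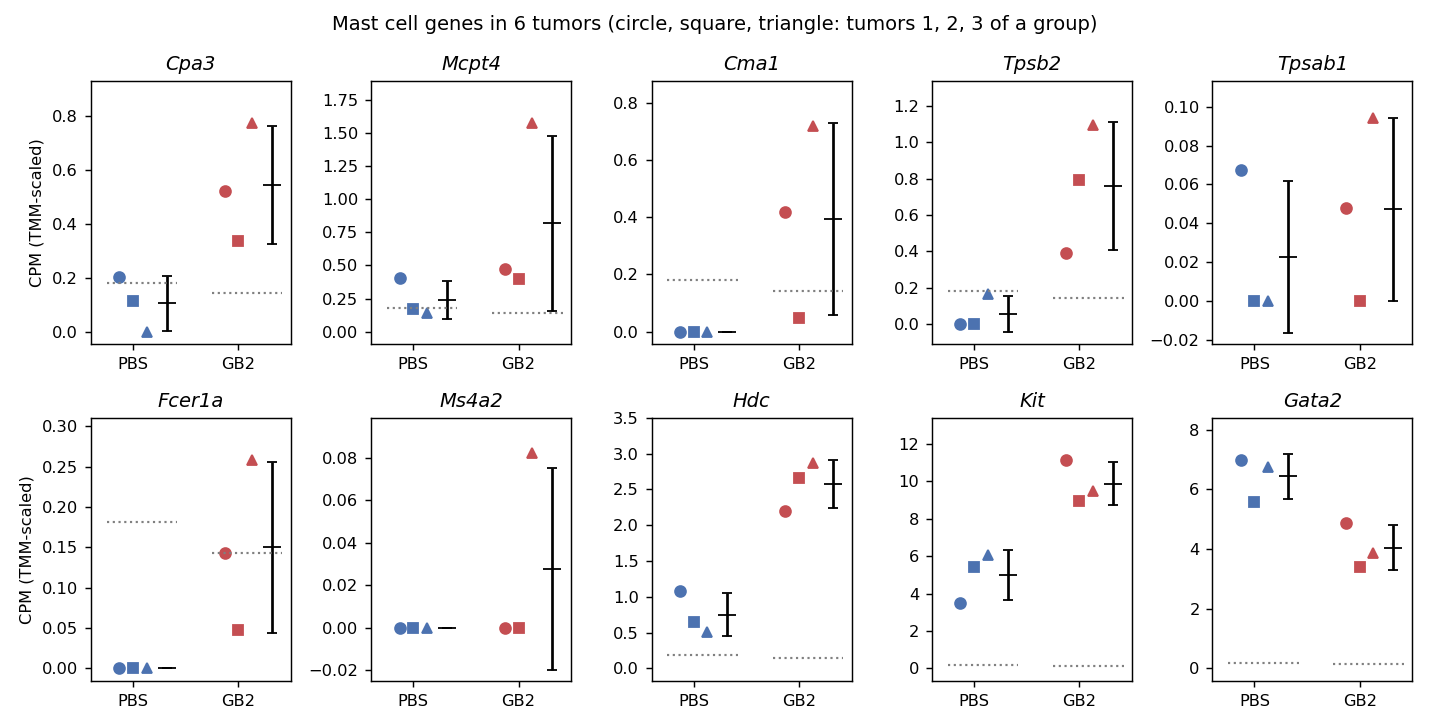
CPM of the 10 mast cell genes in 3 PBS (blue) and 3 GB2 (red) tumors, with circles, squares and triangles for tumors 1, 2 and 3, black bars for the mean ± SD of a group and a dotted grey line for 3 read pairs, averaged over the group (above the axis for Tpsab1 and Ms4a2). Each panel has its own linear axis. Hdc and Kit were higher in all GB2 tumors, Gata2 was lower in all of them, and Cma1, Fcer1a and Ms4a2 had no count in a PBS tumor.

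For the test, the 19602 genes with enough counts were compared by edgeR's quasi-likelihood test, and calls required a Benjamini-Hochberg adjusted p below 0.05 together with at least a 2-fold difference. Of all genes, 0 (0%) were called and 1360 (6.94%) had an unadjusted p under 0.05, while DESeq2 called 385. Among the mast cell genes 6 were tested, which were Kit, Cpa3, Mcpt4, Tpsb2, Hdc and Gata2. Of these, 0 were called by edgeR and 5 had an unadjusted p under 0.05, and 3 of them (Mcpt4, Tpsb2 and Hdc) were also at least 2-fold higher in GB2 tumors, as were 3.74% of all genes tested. Without GB2 tumor 3 the 5 became 2 (Kit and Hdc), and without GB2 tumor 2 they became 3 (Kit, Mcpt4 and Hdc). Lower by these limits were 0 of the 6 and 0.918% of all genes. Cpa3 and Tpsb2 passed the filter on low counts through the GB2 tumors alone, so they could enter the test only with high GB2 values. The median log2 fold change of the 6 tested genes was 1.78, beside -0.02 over all genes tested, and it is given as a description.

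The granule proteases come first, since they are the genes most restricted to mast cells. Cpa3 encodes carboxypeptidase A3, Mcpt4 and Cma1 encode proteases of the chymase family, and Tpsb2 and Tpsab1 encode the tryptases MCP-6 and MCP-7. Both chymase genes lie on chromosome 14, Mcpt4 (ENSMUSG00000061068) from 56297086 to 56299770 and Cma1 (ENSMUSG00000022225) from 56178908 to 56182132. Both tryptase genes lie on chromosome 17, Tpsb2 (ENSMUSG00000033825) from 25585279 to 25587070 and Tpsab1 (ENSMUSG00000024173) from 25562219 to 25564536. Positions are those of the deposited table, for which the submitters' notes name mm10, although they are not the GRCm38 positions of these genes.

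Since these are families of similar genes, reads could be split between copies. The coding sequences of Tpsb2 and Tpsab1 in GENCODE M21 have 77.45% identical bases over 825 aligned bases, and those of Mcpt4 and Cma1 have 72.7% over 707. The longest run they share is 39 bases in the tryptase pair and 27 bases in the chymase pair. These stretches are shown with up to 20 bases on each side, 5′ to 3′, because they are where a short read is hardest to place, and capitals mark bases that differ from the partner in the alignment. They span coding bases 179 to 257 of Tpsb2, 281 to 359 of Tpsab1, 571 to 637 of Mcpt4 and 613 to 679 of Cma1.
Tpsb2: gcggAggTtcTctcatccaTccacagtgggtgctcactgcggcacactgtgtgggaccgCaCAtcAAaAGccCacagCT
Tpsab1: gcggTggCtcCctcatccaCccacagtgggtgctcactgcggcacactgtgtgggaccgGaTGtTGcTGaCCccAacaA
Mcpt4: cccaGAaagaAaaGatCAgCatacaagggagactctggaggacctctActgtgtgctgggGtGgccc
Cma1: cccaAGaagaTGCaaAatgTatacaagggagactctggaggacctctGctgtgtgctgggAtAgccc
The libraries were read in pairs of 150 bases. For each of the 10 genes, 0 of its 150-base stretches occurred in a transcript of another gene of this annotation.

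Cpa3 (ENSMUSG00000001865, chromosome 3 from 20269784 to 20296345) had counts of 12, 8 and 0 in PBS tumors 1, 2 and 3 and of 44, 28 and 66 in GB2 tumors 1, 2 and 3. The groups did not overlap, and the PBS tumors were at or below 3 read pairs. Its level was 0.105 ± 0.102 CPM (SD, n = 3) in PBS and 0.546 ± 0.221 CPM (SD, n = 3) in GB2 tumors. With 5 read pairs in the PBS and 34 in the GB2 group, the ratio was 5.40, with an exact 95% interval of 2.102 to 17.7. The log2 fold change was 2.37 ± 1.06 (SE) in edgeR's quasi-likelihood test (adjusted p = 0.739), which is not past the threshold. It was 3.24 without PBS tumor 1 and 1.79 without PBS tumor 3.

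Tpsb2 had no count in PBS tumors 1 and 2 and counts of 12 in PBS tumor 3 and of 33, 66 and 93 in the GB2 tumors. All GB2 tumors exceeded the PBS tumors. The means were 0.0566 ± 0.0980 CPM and 0.760 ± 0.352 CPM (SD, n = 3 each), and 3 against 48 read pairs gave a ratio of 12.7 with an exact 95% interval of 4.10 to 63.8. The log2 fold change was 3.68 ± 1.30 (SE) (adjusted p = 0.611). It depended on PBS tumor 3, and the fit without that tumor gave 8.86, which is no measure of size since the other PBS tumors were at 0. Tpsab1, the other tryptase, stayed under 3 read pairs in every tumor, with counts of 4, 0 and 0 in PBS and 4, 0 and 8 in GB2 tumors, and no difference was detectable at this depth.

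Mcpt4 had 24, 12 and 10 counts under PBS and 40, 33 and 134 under GB2. The groups overlapped in CPM, as PBS tumor 1 at 0.406 CPM was above GB2 tumor 2 at 0.397 CPM, and GB2 tumor 3 stood apart at 1.58 CPM. The log2 fold change was 1.77 ± 0.74 (SE) (adjusted p = 0.710). It rested on GB2 tumor 3, since it was 0.87 without that tumor, and it was 2.39 without PBS tumor 1.

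Cma1 had no count in the 3 PBS tumors and counts of 35, 4 and 61 in the GB2 tumors. The groups separated, although GB2 tumor 2 did so by a single read pair. Against a floor of 3 read pairs per PBS library, the mean of the GB2 tumors was at least 2.18-fold higher, and this bound was 1.28-fold without GB2 tumor 3. The gene did not pass the filter, and an exact two-sided permutation test of its CPM gave p = 0.1, and no smaller p is possible with groups of 3.

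Summed over the 5 proteases, the level was 0.676, 0.284 and 0.311 CPM in PBS tumors 1, 2 and 3 and 1.86, 1.57 and 4.26 CPM in GB2 tumors 1, 2 and 3. The lowest GB2 tumor was above the highest PBS tumor. The ratio of the group means was 6.05, and it was 4.05 without GB2 tumor 3. In read pairs this was 20 in the PBS and 162 in the GB2 group, and 72 in the GB2 group without tumor 3. In bulk tissue, more mast cells and more of these transcripts per cell cannot be told apart.

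The high-affinity IgE receptor consists of an IgE-binding alpha chain, a signal-amplifying beta chain and a pair of gamma chains. Fcer1a (ENSMUSG00000005339, chromosome 1 from 173048851 to 173054781), the gene of the alpha chain, had no count in the PBS tumors and counts of 12, 4 and 22 in the GB2 tumors, or 3, 1 and 5.5 read pairs. Its mean of 0.150 CPM in GB2 tumors was below the floor of 0.181 CPM that 3 read pairs set in the PBS tumors, so no fold is given. The exact two-sided permutation test gave p = 0.1, the smallest possible value. Ms4a2 (ENSMUSG00000024680, chromosome 19 from 11592887 to 11601083), the gene of the beta chain, had 7 counts in GB2 tumor 3 and none in the other 5 tumors, so that it was near the detection limit throughout.

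The gamma chain, Fcer1g, is shared with Fc receptors of macrophages and other myeloid cells and was far more abundant. The PBS tumors gave 284, 252 and 148 counts, the GB2 tumors 517, 600 and 952, with no overlap, and its log2 fold change was 1.23 ± 0.39 (SE) (adjusted p = 0.504). Of the 17 genes listed for signalling from the receptor, all 17 were tested, 0 were called, 8 had an unadjusted p under 0.05, as had 6.94% of all genes tested, and all 8 of these were higher in GB2 tumors. They were Fcer1g, the kinases Lyn (log2 fold change 1.24), Syk (0.78) and Btk (1.27), the adapter Lcp2 (1.49), the phospholipase Plcg2 (0.86), the exchange factor Vav1 (2.03) and the lipid phosphatase Inpp5d (1.53). Without GB2 tumor 3, Fcer1g, Syk and Btk were no longer under 0.05 (unadjusted p of 0.0587, 0.0661 and 0.0556 in edgeR). Without GB2 tumor 1, Plcg2 was not (unadjusted p of 0.0542 in edgeR). DESeq2 called Lyn, Inpp5d and Vav1. The median of the list was 0.40. Macrophages express these signalling genes too, and the macrophage list moved with them, as given further on, and its part in the result was not tested.

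Hdc (ENSMUSG00000027360, chromosome 2 from 126435587 to 126460598) encodes histidine decarboxylase, the enzyme that makes histamine, and is also expressed by neutrophils and other myeloid cells. PBS tumors had 64, 46 and 36 counts of Hdc, against 185, 221 and 244 with GB2. The groups did not overlap, with 0.509 to 1.08 CPM under PBS and 2.203 to 2.87 CPM under GB2. Its level was 0.748 ± 0.298 CPM in PBS and 2.58 ± 0.341 CPM in GB2 tumors (SD, n = 3 each), a log2 fold change of 1.78 ± 0.39 (SE). The unadjusted p was 0.002135 and the adjusted p 0.262 in edgeR's quasi-likelihood test, which did not call it, whereas DESeq2 did, with an adjusted p of 0.00207. Leaving out single tumors moved it between 1.58 and 2.16.

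Slc18a2, the transporter that loads histamine into granules, showed overlapping groups. It had 112, 412 and 140 counts under PBS and 207, 326 and 212 under GB2, and its log2 fold change was -0.13 ± 0.50 (SE), a sign that turned to 0.61 without PBS tumor 2. Of the 8 genes for the handling and sensing of histamine, 4 were tested and 1, the receptor gene Hrh2, had an unadjusted p under 0.05 (6.94% of all genes tested had one). Hrh2 had counts of 4, 0 and 0 in the PBS tumors, which is near the detection limit, and of 24, 16 and 16 in the GB2 tumors. It passed the filter only through its GB2 values, so nothing is read from this count, and with no filter its unadjusted p in edgeR was 0.0531. Hrh4 was at 0 in all 6 tumors.

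Of the 10 neutrophil genes listed, 7 were tested, 0 were called and 4 had an unadjusted p under 0.05 (6.94% over all genes tested), each higher in GB2 tumors. Ltf had a log2 fold change of -0.43, Retnlg overlapped between the groups and Camp had counts in PBS tumor 3 alone. The summed level of the list was 2.49 to 4.50 CPM in PBS and 9.64 to 12.8 CPM in GB2 tumors, with S100a9 at 1.66 against 4.11 CPM and Csf3r at 0.710 against 4.20 CPM on average. The defining marker Ly6g was at 0 in all tumors. The part of these cells in the level of Hdc was not tested.

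Kit (ENSMUSG00000005672, chromosome 5 from 75735576 to 75817382) encodes the receptor tyrosine kinase for stem cell factor. It is the survival receptor of mast cells and is also found on pigment cells and blood progenitors. Kit counts of 205, 383 and 429 under PBS stood against 937, 745 and 807 under GB2, without overlap. Its level was 4.99 ± 1.36 CPM in PBS and 9.87 ± 1.15 CPM in GB2 tumors (SD, n = 3 each). The log2 fold change was 0.98 ± 0.28 (SE), and edgeR's adjusted p was 0.420. In DESeq2 its adjusted p was 0.0414, but its log2 fold change of 0.98 stayed under the limit of 2-fold.

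The depth of Kit sets it apart from the granule genes. Over each group it had 254 and 622 read pairs, against 20 and 162 for the 5 proteases together, and GB2 tumor 3, the highest tumor for the proteases, was not the highest for Kit. The pigment cell list, which holds genes of another cell type with KIT, overlapped between the groups, with a summed CPM ratio of 1.11. Within it, Ednrb, which endothelial cells also express, was separated and higher in GB2 tumors (log2 fold change 1.64, adjusted p = 0.186), and Mlana overlapped with a log2 fold change of -1.01. The part of pigment cells in the level of Kit was not tested. The 8 blood progenitor genes summed to 38.7 to 44.6 CPM under PBS and to 57.9 to 65.5 CPM under GB2, without overlap and with a ratio of the means of 1.52. Of the 6 tested, 2 had an unadjusted p under 0.05 (6.94% over all genes tested), both higher in GB2 tumors. Cd34, which endothelial cells also express, was at 9.76 CPM in PBS and 21.04 CPM in GB2 tumors and Runx1 at 16.3 and 20.7 CPM. The part of these cells in the level of Kit was not tested.

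Kitl encodes the ligand of KIT and is made by fibroblasts, endothelium and keratinocytes. It had 281, 202 and 183 counts under PBS against 469, 380 and 653 under GB2. The groups overlapped in CPM, and the log2 fold change was 0.81 ± 0.35 (SE) (adjusted p = 0.722). Of the 12 genes listed as growth factors and cytokine receptors of mast cells, 9 were tested, 0 were called and 3 had an unadjusted p under 0.05 (6.94% over all genes tested), each higher in GB2 tumors. They were Csf2rb (log2 fold change 1.60), the shared chain of the IL-3 and GM-CSF receptors, Il4ra (1.57) and Il1rl1 (1.62), which encodes the IL-33 receptor ST2. DESeq2 called Csf2rb and Il4ra.

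Gata2 (ENSMUSG00000015053, chromosome 6 from 88170873 to 88184014) encodes a transcription factor that mast cells need and that endothelial cells and blood progenitors also use. Its direction was opposite to that of the other tested genes. The PBS tumors held 414, 393 and 476 counts and the GB2 tumors 409, 284 and 328, and after scaling every GB2 tumor was below every PBS tumor. Its level was 6.44 ± 0.757 CPM in PBS and 4.05 ± 0.747 CPM in GB2 tumors (SD, n = 3 each). The log2 fold change was -0.67 ± 0.26 (SE), and edgeR's adjusted p was 0.679. It was negative in all 15 alternative fits. Of the 10 endothelial markers, all tested, 9 had an unadjusted p under 0.05 (6.94% over all genes tested) and were higher in GB2 tumors, while Vwf overlapped with a log2 fold change of -0.48, and their summed level was 82.0 to 97.8 CPM under PBS and 161 to 181 CPM under GB2. Pecam1 was at 14.7 CPM in PBS and 37.2 CPM in GB2 tumors and Cdh5 at 12.02 and 31.3 CPM. The part of these cells in the level of Gata2 was not tested.

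**Figure D3:**
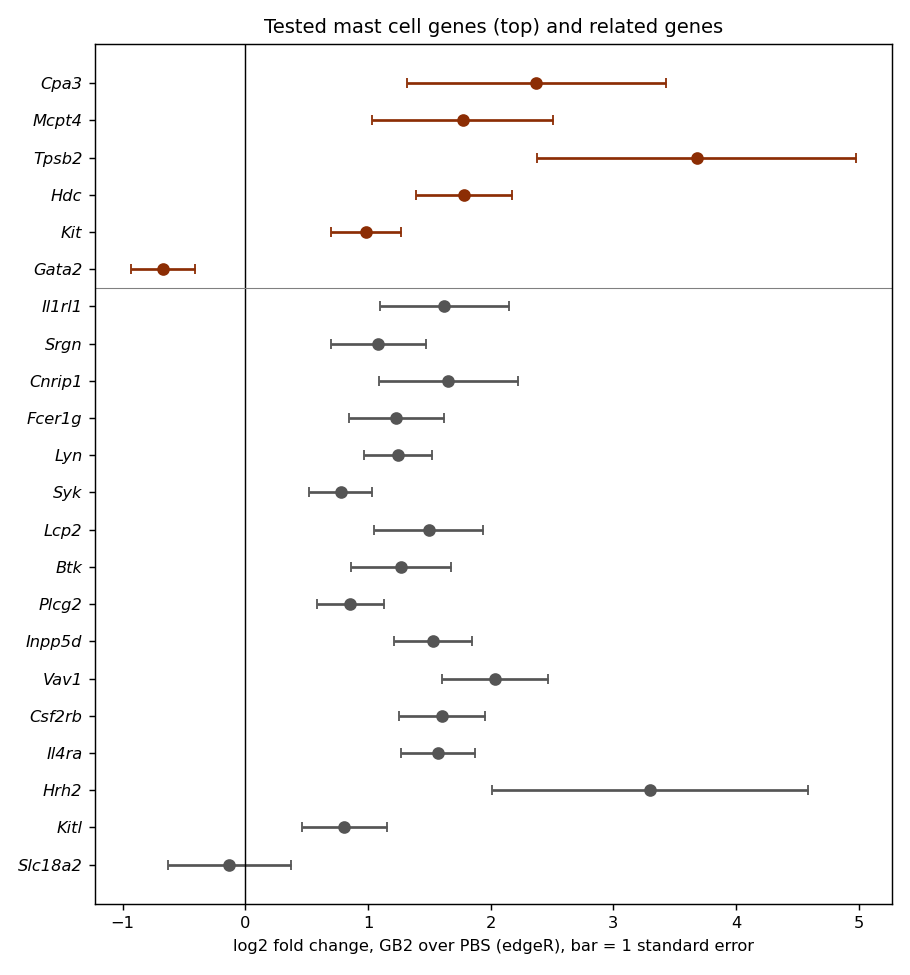
Log2 fold changes of GB2 over PBS tumors from the edgeR fit for the 6 tested mast cell genes (brown, top) and for related genes with an unadjusted p under 0.05, Kitl and Slc18a2 (grey), with bars of 1 standard error. Hdc and Kit have short bars, Cpa3 and Tpsb2 have bars over 1 unit long on each side, Gata2 is the only one of the 6 left of 0, and edgeR called none of the genes.

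A promoter sequence was available for 8 of the 10 genes in the RefSeq table of build GRCm38.p6. The 250 bases before the transcription start were searched on both strands for AGATAA and TGATAA, which are among the letters that GATA factors recognise. Forms that end in G, such as TGATAG, were not searched. AGATAA or TGATAA was found in 4 of the 8 genes (Cpa3, Mcpt4, Fcer1a and Ms4a2) and in 16.6% of all 32851 promoters in the table. Cpa3 and Mcpt4 are tested genes with these letters and Hdc is one without them, beside the values of the factor gene Gata2. Their sequences are shown, 5′ to 3′ on the strand of the gene, and capitals mark AGATAA or TGATAA. They are chr3:20242182-20242431 on the minus strand for Cpa3, chr14:56062311-56062560 on the minus strand for Mcpt4 and chr2:126618679-126618928 on the minus strand for Hdc, in GRCm38.p6.
Cpa3: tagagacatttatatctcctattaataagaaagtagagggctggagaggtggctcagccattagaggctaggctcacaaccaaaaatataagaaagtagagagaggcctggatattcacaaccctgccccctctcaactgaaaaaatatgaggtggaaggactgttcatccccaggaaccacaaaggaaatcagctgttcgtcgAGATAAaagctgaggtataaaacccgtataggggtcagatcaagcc
Mcpt4: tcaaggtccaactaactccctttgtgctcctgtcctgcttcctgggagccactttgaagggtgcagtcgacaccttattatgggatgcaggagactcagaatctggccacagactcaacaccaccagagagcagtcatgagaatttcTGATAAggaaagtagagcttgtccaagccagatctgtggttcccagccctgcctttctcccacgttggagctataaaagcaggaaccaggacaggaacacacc
Hdc: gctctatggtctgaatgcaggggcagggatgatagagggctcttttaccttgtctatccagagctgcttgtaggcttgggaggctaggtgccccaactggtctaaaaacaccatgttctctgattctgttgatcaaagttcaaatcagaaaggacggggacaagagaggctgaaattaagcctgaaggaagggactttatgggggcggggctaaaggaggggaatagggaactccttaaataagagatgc
The motif starts 46 bases before the transcription start in Cpa3 and 103 bases before it in Mcpt4. In Hdc, Kit, Gata2 and Cma1, AGATAA and TGATAA are not in the window. However, the Hdc window holds TGATAG, and the Cma1 window holds CTATCT, which is AGATAG on the other strand. A match describes the sequence and does not show binding.

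Of 28 other genes of mast cells on the list, 24 were in the table, 16 were tested, 0 were called and 3 had an unadjusted p under 0.05 (6.94% over all genes tested), each higher in GB2 tumors. They were Il1rl1, Srgn (log2 fold change 1.09), which encodes the granule proteoglycan serglycin and is also abundant in other leukocytes, and Cnrip1 (1.65), which encodes a protein that binds a cannabinoid receptor. Without GB2 tumor 3, Srgn and Cnrip1 were no longer under 0.05 (unadjusted p of 0.068 and 0.0587 in edgeR). Without GB2 tumor 2, Il1rl1 and Srgn were not (unadjusted p of 0.0553 and 0.0599 in edgeR). The median of the list was 0.15. Some genes of mast cell subtypes were near the detection limit. The connective tissue type receptor gene Mrgprb2 had at most 8 counts in a tumor and Mrgprb1 at most 10, and the mucosal protease gene Mcpt1 had 8 counts in PBS tumor 1, 8 in GB2 tumor 3 and none elsewhere. Mcpt2 was not found by its gene name in the deposited table. Several genes of this list were abundant without a difference, such as Mitf with a log2 fold change of 0.01, Cd63 with -0.13 and Mlph with 0.10, and pigment cells express these too. Of the 8 genes for heparin and the granule matrix, all tested, Srgn was the single gene with an unadjusted p under 0.05 (1 of 8), and the median was 0.19.

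Markers of basophils, which share Fcer1a, Ms4a2, Hdc and Gata2 with mast cells, were near the detection limit where they are specific. Mcpt8, the defining protease of basophils, had 2 counts in PBS tumor 2, 6 in GB2 tumor 2 and none in the other tumors. The summed level of the list was 15.2 to 21.7 CPM in PBS and 16.6 to 22.7 CPM in GB2 tumors and was carried by Itga2 and Il3ra, which other cells express. Of the 9 eosinophil genes 5 were in the table and 0 were tested, and Prg2 and Ear2, the highest of them, had at most 16 and 18 counts in a tumor.

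As edgeR called no gene at all, no marker list of other cells held one, and the values of these lists are given beside the mast cell genes. DESeq2 called the macrophage marker Adgre1 (log2 fold change 2.55, adjusted p = 4.2e-06), and its calls for the other markers are not given here. Macrophage markers were summed to 65.2 to 92.3 CPM in PBS and 254 to 354 CPM in GB2 tumors, with GB2 tumor 3 highest, and all 10 had an unadjusted p under 0.05, which 6.94% of all genes tested had. Lyz2 was at 31.7 and 136 CPM and Cd68 at 11.4 and 29.6 CPM. Of the 10 fibroblast markers, 9 had an unadjusted p under 0.05. They were summed to 401 to 699 CPM in PBS and 1196 to 1607 CPM in GB2 tumors, again highest in GB2 tumor 3, with Col1a1 at 129.9 and 355 CPM and Col3a1 at 136 and 422 CPM. Keratinocyte and skin markers were at 21.7 to 85.8 CPM in PBS and 69.2 to 118 CPM in GB2 tumors, with overlap, with 1 of 8 genes at an unadjusted p under 0.05 and with Krt5 and Krt14 highest in GB2 tumor 3. Skeletal muscle markers were at 101 to 171 CPM and 214 to 243 CPM, led by Acta1 and Myh1, with 3 of 8 genes at an unadjusted p under 0.05. Adipocyte markers were at 15.3 to 56.6 CPM and 51.0 to 71.4 CPM, led by Fabp4 and Adipoq, with overlap and with 0 of 6 genes at an unadjusted p under 0.05. Mast cells live in skin and connective tissue, and the part of these tissues in the mast cell genes was not tested.

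**Figure D4:**
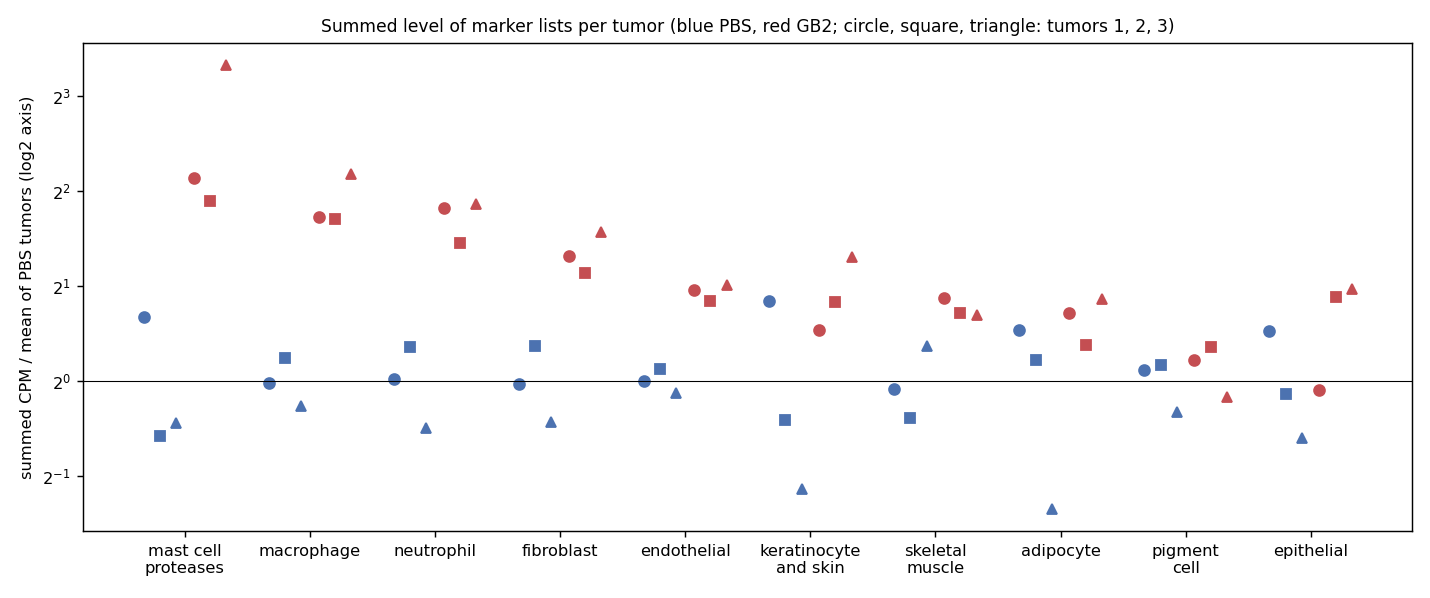
Summed CPM of each marker list per tumor, divided by the mean of the PBS tumors, on a log2 axis, with PBS tumors in blue, GB2 tumors in red and circles, squares and triangles for tumors 1, 2 and 3. The group means of the 5 mast cell proteases differ by a ratio of 6.05, those of macrophage markers by 3.70, of fibroblast markers by 2.55 and of pigment cell markers by 1.11, and differences between these ratios were not tested.

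The genes most like the granule proteases across the tumors were sought by the root mean square difference of centred log2 CPM over the 6 tumors from the mean of Cpa3, Mcpt4 and Tpsb2, the 3 tested proteases. The closest were Adgre1 (difference 0.22 on the log2 scale), the gene of the macrophage marker F4/80, then I830077J02Rik (0.25), Tnc (0.27), which encodes the matrix protein tenascin C, the phosphatase gene Ptpro (0.31) and the Wnt antagonist gene Sfrp1 (0.32). None of them is on the mast cell lists. Adgre1 went from 109, 96 and 63 counts under PBS to 502, 487 and 1035 under GB2, and each of these 5 genes was highest in GB2 tumor 3. DESeq2 called all 5, and edgeR called none. The likeness is a description over 6 tumors that share the same group difference. Cpa3 and Tpsb2 had at most 3 read pairs in a PBS tumor and were tested only through their GB2 values, so the profile is one of higher values in GB2 tumors, and genes higher in GB2 tumors lie near it.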

How the data were processed

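Total RNA of 6 tumors was poly-A selected and sequenced as stranded pairs of 150 bases. The estimated counts and the FPKM values were deposited by the authors for 33965 genes. FPKM are divided by transcript length and library total, and the counts are unscaled whole numbers. The submitters' processing notes name cutadapt 1.9, HISAT2 2.2.1, StringTie 2.1.6, DESeq2, edgeR and mm10. However, 641 of 31999 gene IDs (2%) and 0 of the 10 mast cell genes have the positions of GENCODE M21 (GRCm38), so table positions and GRCm38 positions were not mixed. Counts from 64764405 to 83690056 per tumor and 3 tumors per group limit the precision.

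Counts were rounded and analysed in R 4.3.3 with edgeR 4.0.16 (filterByExpr with a minimum count of 10, TMM, glmQLFit, glmQLFTest, Benjamini-Hochberg adjustment over 19602 genes). Standard errors come from the test statistic, and a prior count of 2 entered the log2 CPM. Alternatives used DESeq2 1.42.0, limma 3.58.1 on log2(FPKM + 1) and log2(FPKM + 0.1), other scalings and filters, counts divided by 4, the tumor number as a block and each tumor left out. The scripts were tested on simulated data. Sequences were handled in Python 3.11.15 with Biopython 1.88.

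The members and lists were chosen with earlier results of these data known. Genes are named when they are members, when a related gene has an unadjusted p under 0.05 or a separated 2-fold change, when needed to read a member, as the 2 highest of each other cell type, or as the 5 most alike to the proteases. Mrgprb1, Mrgprb2, Mitf, Cd63, Mlph, Hrh4, Ly6g, Ltf, Retnlg, Camp, Vwf and the epithelial and pigment cell genes beyond these were named after their values were seen. Some items that the rule names are not reported here.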

Additional observations from a re-analysis of the deposited data

How the results depend on the processing

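Of the mast cell genes tested, all 6 kept their direction in every alternative that tested them. Cpa3, Mcpt4 and Tpsb2 were not tested with a minimum count of 40 or with counts divided by 4. Hdc was called by DESeq2 (log2 fold change 1.78), which called 385 genes, whereas the other 14 alternatives called 0. The median of the tested mast cell genes was 0.98 with a minimum count of 40 and 0.98 with counts divided by 4, where it covers 3 genes, and 0.40 by limma on log2(FPKM + 1), whose pseudocount shrinks low genes. Without each tumor in turn it ran from 1.36 to 2.28. Cpa3 ran from 1.79 to 3.24, Tpsb2 from 3.10 to 8.86 and Mcpt4 from 0.87 to 2.39 in these fits, and the protease ratio from 4.05 to 8.62. The number of genes higher at an unadjusted p under 0.05 and at least 2-fold was 733, and 95 by limma on log2(FPKM + 1). The number of lower genes was 180, and 338 with no filter, 117 with a minimum count of 40, 34 and 115 by limma with pseudocounts of 1 and 0.1, and 123 to 548 with a tumor left out (310 without PBS tumor 2, 548 without PBS tumor 3). The cause was not tested. Slc18a2 changed sign, to 0.044 with the replicate block, 0.082 by limma on log2(FPKM + 0.1) and 0.61 without PBS tumor 2, with -0.39 to 0.61 over the fits that left out a tumor. Tumors of the same number deviated from their group means with correlations of 0.03, 0.15 and -0.24 across genes. With 3 tumors per group these values cannot settle whether the numbers pair tumors, and the labels do not say. The block gave log2 fold changes of 1.01 for Kit and 1.84 for Hdc and called 0 genes. The number of mast cell genes with an unadjusted p under 0.05 was 5 in the report. By DESeq2 it was 6, which includes Cpa3. By limma on log2(FPKM + 1) it was 4, of which 0 were at least 2-fold higher. It was 3 with the block, 3 with a minimum count of 40 or counts divided by 4 (3 tested), and 2 to 5 with a tumor left out. The Cma1 bound, recomputed by a choice made after seeing the data, was 1.28-fold without GB2 tumor 3. For Tpsab1 and Ms4a2, under 3 read pairs in every tumor, no difference was detectable at this depth.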
